A study of Mus musculus with 10 samples.

Results

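The comparison set mouse brains lacking COP1 together with cJun, ETV1 and ETV5 (QKO, 2 libraries labelled COP1.cJun.ETV1.ETV5 QKO) against brains lacking COP1 alone (KO, 2 libraries labelled COP1 KO). These 4 libraries were taken by their genotype labels from 10 in all, and every gene was tested. Messenger RNA came from embryonic brains at stage E18.5 without the olfactory bulbs. Besides KO and QKO, the series holds a control heterozygous for COP1 (COP1 het control), a knockout of COP1 and cJun (DKO, COP1.cJun DKO) and a knockout of COP1, cJun and ETV1 (TKO, COP1.cJun.ETV1 TKO), with 2 libraries each. KO and QKO therefore share the loss of COP1, and the control is not wild type. Strain, litter and the tissue of deletion were not given in the sources used here. Libraries are named by genotype with a number from accession order that carries no pairing. Whether the 2 libraries of a genotype come from separate embryos is likewise not labelled. The 2 controls differed in sex by their Xist and Uty levels, as did the 2 DKO libraries, so these came from different embryos. For KO and QKO, all of the male pattern, this is not known. The p-values rest on a spread shared by the 5 groups, and within KO that spread is possibly a technical one. The 2 QKO libraries differed more than the 2 controls did (chi-square per degree of freedom of 19.5 against 9.80). Whether that difference is between embryos was not tested.

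COP1 is a substrate-binding subunit of a ubiquitin ligase that contains DET1, DDB1 and CUL4, and Tribbles proteins can act as adaptors that bring it substrates. Its known substrates include the AP-1 factor cJun and the PEA3 group of ETS transcription factors, ETV1, ETV4 and ETV5, which accumulate as proteins when COP1 is lost. In the embryonic brain, radial glia first give rise to neurons and later to astrocytes and oligodendrocyte precursor cells (OPCs), and late gestation is the time when these glial cells appear. AP-1 and ETS factors are activated by growth factor signalling through ERK in many of these cells. RNA levels do not measure the amount of these proteins.

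Loss of cJun, ETV1 and ETV5 in addition to COP1 went with lower transcripts of glial cells. Olig2 and Olig1, transcription factors of the oligodendrocyte lineage, fell 2.37-fold and 2.51-fold, Gfap, the astrocyte intermediate filament, fell 6.45-fold, and Vim, the filament of radial glia, fell 1.84-fold. The transcripts of the PEA3 group of ETS factors went the other way, with Etv4 3.21-fold and Etv1 2.24-fold higher in QKO. Of 18671 genes tested, 240 (1.29%) passed an adjusted p of 0.05 (edgeR quasi-likelihood test, n = 2 per group), and all calls below use that threshold. Of these, 66 (0.353%) were higher in QKO and 174 (0.932%) lower. Most changes were small, and 22 of the higher and 34 of the lower genes differed at least 2-fold. The median log2 fold change was 0.72 among the higher genes, -0.66 among the lower genes and -0.01 over all genes tested. With 1 library left out and the remaining one of its group assumed to vary like the others, the count of called genes was 75 without KO 1, 85 without KO 2, 259 without QKO 1 and 135 without QKO 2. Of the 240 genes, 57 were called in all 4 of these fits and 66 in none. No called gene changed sign under the alternatives tried, but these refit libraries in which the genes were called, so this is no test of their direction.

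**Figure D1:**
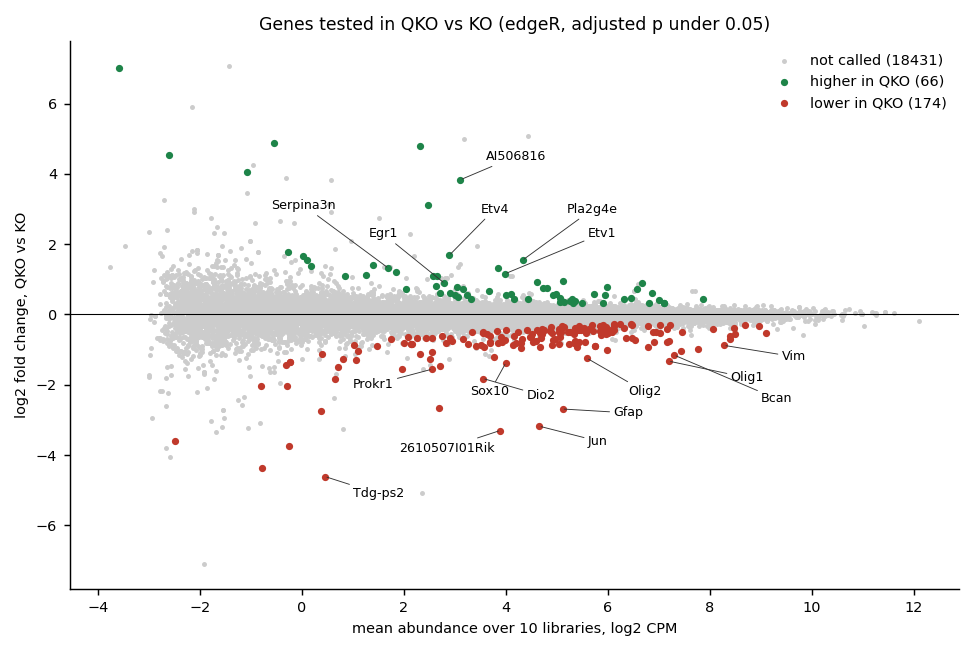
Each point is a gene tested, with its mean abundance over the 10 libraries on the x axis (log2 CPM, counts scaled to library size) and its log2 fold change in QKO against KO on the y axis. Green points are the 66 genes called higher in QKO and red points the 174 called lower. Olig2, Olig1, Vim and Bcan lie among the abundant genes with modest folds.

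Libraries of the compared groups held 54594523 and 40019481 counts in KO and 38052935 and 41782062 in QKO, and 3 counts corresponded to between 0.055 and 0.0788 CPM. All 4 had the Xist and Uty pattern of male tissue, whereas control 1 and DKO 1 had the female pattern (1840 and 1464 CPM of Xist, 0 of Uty). The neuronal maturation genes, which should be abundant in brain, summed to 9374 and 9246 CPM in KO and 9468 and 9621 CPM in QKO. The libraries also differed in traits that the genotype labels do not name. The 13 measured HOX genes, which mark the caudal hindbrain, had a mean of -1.81 and -2.81 log2 CPM in KO 1 and KO 2, 0.91 in QKO 1, -1.77 in QKO 2, and 0.8022 and 1.3007 in the controls. QKO 1 thus stood near the controls and QKO 2 near KO 1. Erythroid genes, mainly globins, summed to 209 and 245 CPM in KO and 319 and 408 CPM in QKO. In QKO against KO the medians of these lists were 2.74 and 0.68 on the log2 scale. The edgeR test called 0 of 13 HOX genes and 0 of 7 erythroid genes (unadjusted p under 0.05 for 12 and 6). With DESeq2 the calls were 3 and 2, all higher in QKO.

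Among the deleted genes, Jun checks the labels. It stood at 16.1 and 15.3 nRPKM (RPKM scaled by a size factor per library) in KO and at 2.05 and 1.44 in QKO. Both QKO libraries lay far below both KO libraries, a 9.06-fold difference (log2 -3.18 ± 0.22 SE, adjusted p = 6.52e-05). DKO, which also lacks cJun, held 2.94 and 1.61 nRPKM of Jun, and QKO against DKO did not pass (-0.41 ± 0.23, adjusted p = 0.575). Cop1, deleted in both groups, was at 3.84 and 4.16 nRPKM in KO and 3.95 and 4.39 in QKO (0.05 ± 0.09, adjusted p = 0.888). A deleted exon is not visible in whole-gene counts, and those of Cop1, Etv1 and Etv5 therefore do not check the labels.

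The genes of the PEA3 factors had more counts in QKO than in KO, the deleted ones included. Etv1 was at 1.76 and 2.29 nRPKM in KO and 4.71 and 4.38 in QKO, near the controls at 4.82 and 4.95. The difference was 1.16 ± 0.11 on the log2 scale (adjusted p = 0.000474), and QKO against control did not pass (-0.11 ± 0.11, adjusted p = 0.928). Etv4, whose gene no label gives as deleted, was at 1.184 and 1.201 nRPKM in KO and 3.83 and 3.88 in QKO. It rose by 1.68 ± 0.12 (adjusted p = 9.21e-05), to a level below the 5.15 and 6.08 nRPKM of the controls. Etv5 was at 2.65 and 2.68 nRPKM in KO and 3.97 and 4.11 in QKO, with the controls at 6.72 and 7.24. Its rise of 0.59 ± 0.08 (adjusted p = 0.00456) was lost without KO 1, and it stayed lower in QKO than in control (-0.79 ± 0.08, adjusted p = 0.00169). Of the 44 genes (0.236% of 18671) called in QKO against control, Etv5 and Jun were the members of this family of substrates. The KO and QKO libraries did not overlap for any of the PEA3 genes, which with 2 libraries a group adds no evidence to the calls. These comparisons share libraries, so their values are given side by side only.

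Of 8 measured COP1 substrates from the AP-1 and ETS families, the 3 PEA3 genes rose, Jun fell and 4 did not pass. Junb was among the latter (-0.06 ± 0.15). Of the 9 measured AP-1 partners edgeR and DESeq2 called 0 (unadjusted p under 0.05 for 0 and 1 of them), and Fos had a log2 fold change of 0.13 ± 0.21. Erf, a repressor that binds ETS sites and is held in check by ERK, was at 7.557 and 6.996 nRPKM in KO and 4.72 and 4.61 in QKO. It was lower by -0.65 ± 0.09 (adjusted p = 0.00395), a call that was lost without KO 1.

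Trib1, a Tribbles pseudokinase that recruits substrates to COP1, was the member of the 10-gene COP1 ligase and Tribbles list that edgeR called in QKO against KO, while DESeq2 called 2, Trib1 and Trib2. KO held 6.96 and 7.18 nRPKM and QKO 4.32 and 4.12, so that both QKO libraries lay near the controls at 3.79 and 3.76. It fell by 0.75 ± 0.08 on the log2 scale (adjusted p = 0.000663). Trib2, its relative, stood at 54.1 and 56.8 nRPKM in KO and 43.5 and 48.3 in QKO, without passing in edgeR (-0.28 ± 0.07, adjusted p = 0.0736, DESeq2 adjusted p = 0.0154). The ligase partners Det1 and Ddb1 had log2 fold changes of -0.09 ± 0.10 and -0.05 ± 0.08.

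**Figure D2:**
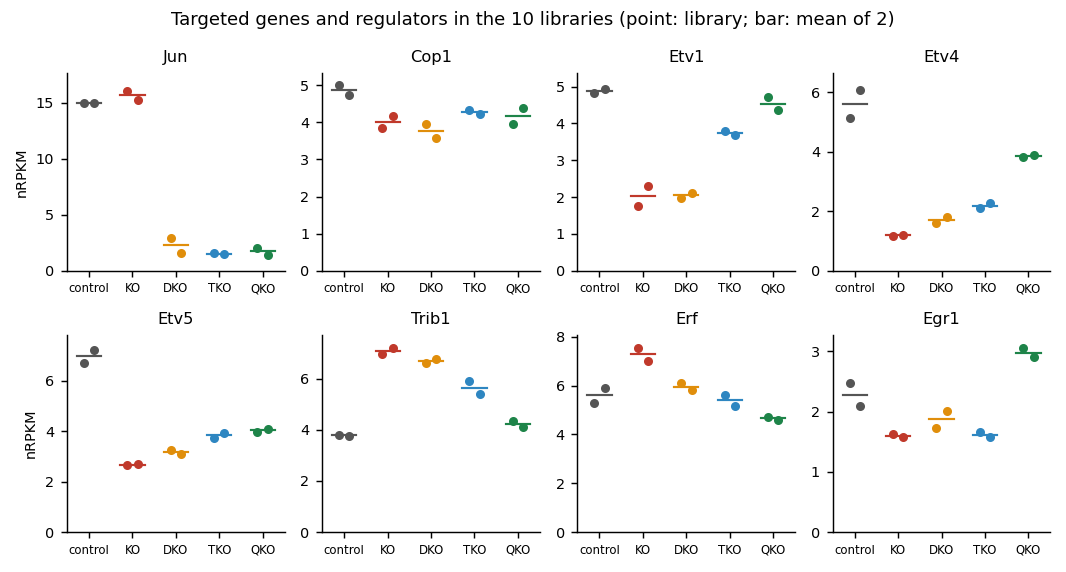
Each panel shows a gene with its nRPKM on the y axis (linear, from 0) and the genotypes on the x axis. Points are libraries and bars are the mean of 2. Jun is low in DKO, TKO and QKO, Etv1 and Etv4 are higher in QKO than in KO, and Trib1 falls from near 7 nRPKM in KO to near 4 in QKO.

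The OPC genes were the group with the lowest median among the glial lists. Of 15 measured members 8 fell and none rose, with a median log2 fold change of -0.78, against -0.01 over all genes and 0.932% of all genes called lower. The list was drawn up with earlier results of these data known, so its count is a description. Olig2 stood at 28.04 and 25.12 nRPKM in KO and 11.56 and 10.998 in QKO. Both QKO libraries were well below either KO library and close to the controls at 11.9 and 13.0 (log2 -1.25 ± 0.09, adjusted p = 8.3e-05). Olig1, its neighbour and partner in oligodendrocyte specification, was at 107.7 and 88.7 nRPKM in KO and 41.8 and 37.0 in QKO (-1.33 ± 0.13, adjusted p = 0.000474). Sox10, which directs oligodendrocyte differentiation, was at 9.95 and 7.61 nRPKM in KO and 3.935 and 2.896 in QKO (-1.38 ± 0.16, adjusted p = 0.00156). For each of these factors the lowest KO library lay above the highest QKO library, which describes the same values as the calls and adds no evidence.

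Sox8, a close relative of Sox10, fell by 0.81 ± 0.08 and Pdgfra, the receptor through which PDGF drives OPC division, by 0.78 ± 0.08. Pdgfra was at 21.5 and 20.5 nRPKM in KO and 12.8 and 11.8 in QKO. Bcan, which encodes the matrix proteoglycan brevican, was at 57.0 and 50.8 nRPKM in KO and 27.7 and 20.9 in QKO (-1.16 ± 0.12). Cspg4, the proteoglycan NG2 of OPCs and pericytes, fell by 0.83 ± 0.14 (adjusted p = 0.0157) and Lhfpl3 by 0.44 ± 0.08 (adjusted p = 0.0194). Those last calls were less stable. Cspg4 was called in 1 of the 4 fits with a library left out and Lhfpl3 in none. The 7 members that did not pass include Matn4 (-0.88 ± 0.19, adjusted p = 0.0505), Ptprz1 (-0.40 ± 0.11) and Cspg5 (-0.23 ± 0.06), and Neu4 had the one positive value (0.63 ± 0.75). The summed OPC level was 2129 and 2064 CPM in KO, 1460 and 1344 CPM in QKO and 1512 and 1571 CPM in control. Whole brains were measured, so fewer cells of a type and less RNA per cell cannot be told apart.

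Of 13 measured genes of myelin and later oligodendrocytes edgeR and DESeq2 called 0. With 0.932% of all genes called lower by edgeR, 0 in so short a list does not show that these genes were unchanged. At an unadjusted p under 0.05 the list held 5 with edgeR and 3 with DESeq2, against 2148 of all 18671 with edgeR. The log2 fold changes ran from -0.33 to 0.37, with a median of -0.16. Their summed level was 416 and 413 CPM in KO and 378 and 377 CPM in QKO. Opalin was at 0 counts in all 4 libraries.

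Among astrocyte genes the log2 fold changes ran from -2.69 to 0.53. Of 20 measured members 5 fell, none rose and 15 did not pass, with a median log2 fold change of -0.27, against 0.932% of all genes called lower. Gfap was at 21.3 and 18.3 nRPKM in KO, and at 4.08 and 2.12 in QKO, where the libraries differed from each other, but both lay below KO (-2.69 ± 0.27, adjusted p = 0.000582). Fgfr3, an FGF receptor of astrocyte precursors, was at 20.02 and 17.62 nRPKM in KO and 10.25 and 8.548 in QKO (-1.01 ± 0.10, adjusted p = 0.000456). Aldh1l1, a folate enzyme used as an astrocyte marker, fell by 0.68 ± 0.08, and the glutamate transporter Slc1a3 by 0.56 ± 0.07. Sox9, which promotes gliogenesis, fell by 0.48 ± 0.07 (adjusted p = 0.00929), a call found in 1 of the 4 fits with a library left out. Other astrocyte genes did not pass and some had positive values, such as the connexin gene Gjb6 (0.49 ± 0.14, adjusted p = 0.143).

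Radial glia genes shared this direction. Of 23 measured members 8 fell, none rose and 15 did not pass, with a median of -0.40, against 0.932% of all genes called lower. This list too was drawn up with earlier results known, so its count is a description. The count of 8 became 5 with the HOX covariate, with limma and in each fit without 1 of KO 1, KO 2, QKO 1 or QKO 2. Vim was at 231.9 and 235.6 nRPKM in KO and 121.8 and 133.9 in QKO (-0.88 ± 0.07, adjusted p = 0.000252). Nes, the filament nestin of neural stem cells, was at 30.3 and 35.4 nRPKM in KO and 18.4 and 20.8 in QKO (-0.76 ± 0.08). Egfr, the EGF receptor through which late progenitors respond to growth factors, was at 7.55 and 8.30 nRPKM in KO and 4.67 and 4.17 in QKO (-0.85 ± 0.09, adjusted p = 0.000688). In each of these genes the KO and QKO libraries did not overlap, which again adds no evidence to the calls. Notch1 (-0.72 ± 0.11), the Shh co-receptor Cdon (-0.52 ± 0.09), the matrix protein Tnc (-0.70 ± 0.12) and the Notch target Hes5 (-0.55 ± 0.12, adjusted p = 0.0485) completed the members that fell with Slc1a3. Cdon and Tnc were called in none of the 4 fits with a library left out. The neural stem cell factor Sox2 did not pass (-0.41 ± 0.10, adjusted p = 0.0909).

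**Figure D3:**
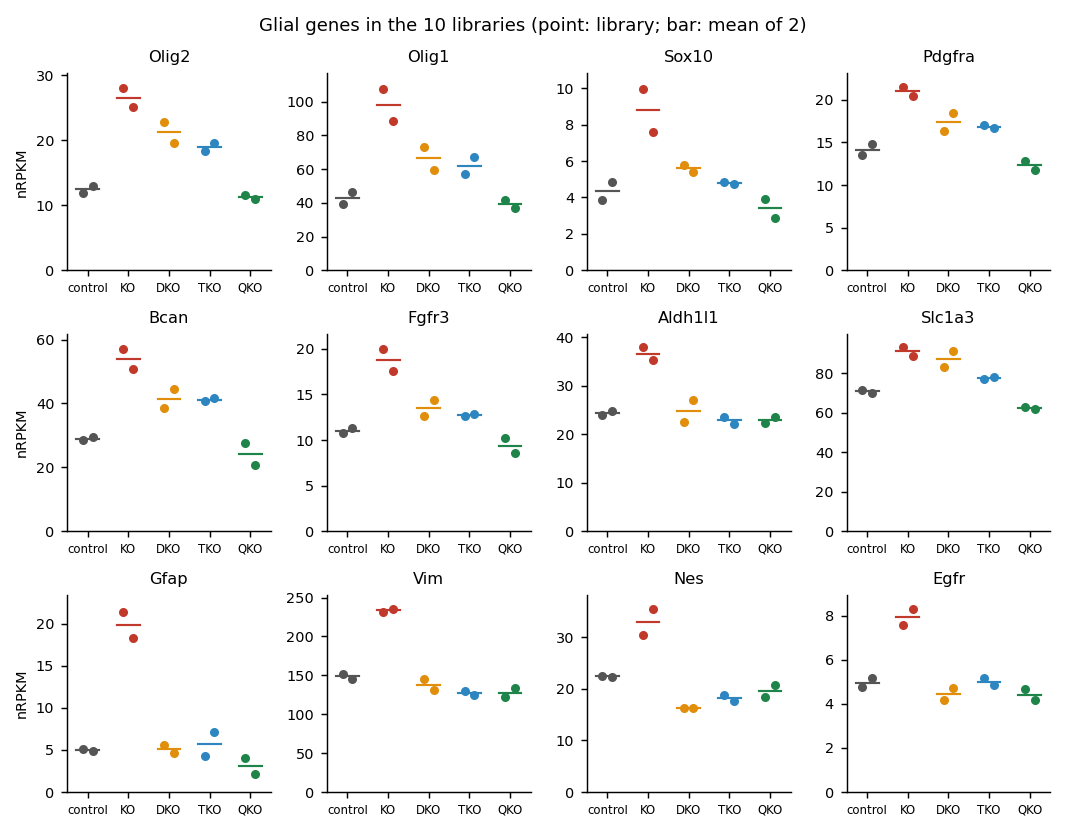
Each panel shows a glial gene with its nRPKM on the y axis (linear, from 0) and the 5 genotypes on the x axis. Points are libraries and bars the mean of 2. The KO mean is the highest in every panel and the QKO mean lies below the control mean, while DKO lies between KO and QKO for Olig2, Olig1, Sox10, Pdgfra and Bcan but near QKO for Aldh1l1, Vim, Nes and Egfr.

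The erythroid sums given above were higher in both QKO libraries than in KO, whereas the HOX level was high in QKO 1 and near that of KO 1 in QKO 2. The part of these traits in the glial differences was not tested beyond a fit with the mean HOX level as a covariate. In that fit 224 genes were called, 138 of them among the 240. Olig2 (-1.302), Sox10 (-1.74), Bcan (-1.47), Fgfr3 (-1.24), Gfap (-3.21) and Vim (-0.78) were still called lower. The OPC count was 7 of 15 and the astrocyte count 7 of 20. Without QKO 1, the library with the higher HOX level, the counts were 7 and 6, and without QKO 2 they were 6 and 4.

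Side comparisons place these levels against the other genotypes. KO against control called 137 genes (0.734%), with 7 OPC genes, 4 astrocyte genes and 5 radial glia genes higher and 1 radial glia gene lower. The 7 OPC calls became 2 without control 1, 3 without control 2, 2 without KO 1 and 6 without KO 2. The 4 astrocyte calls became 0, 1, 0 and 3 in the same fits, and the 5 higher radial glia calls 1, 2, 3 and 1. The HOX genes were lower in KO than in control, with 6 of 13 called and a median of -3.44. With the HOX covariate the higher calls were 6 for OPC, 2 for astrocyte and 1 for radial glia genes, and Vim lost its call. Olig2 and Olig1 were called in all 4 fits with a library left out and with the covariate. In QKO against control edgeR called 0 genes of these 3 lists (unadjusted p under 0.05 for 3, 7 and 7). With DESeq2 the calls were 0, 1 and 0. Their medians there were -0.17, -0.16 and -0.11. At an adjusted p of 0.831 for Olig2 (-0.14 ± 0.09), 0.643 for Gfap (-0.70 ± 0.27) and 0.539 for Vim (-0.22 ± 0.07), the data do not show that QKO equals the control. QKO against DKO compared brains that by label differ in ETV1 and ETV5, with cJun gone from both, and called 130 genes (0.696%). These groups differed in other traits too. DKO 1 had the female pattern, and erythroid genes summed to 581 and 669 CPM in DKO against 319 and 408 CPM in QKO. The mean HOX level was 0.91 in QKO 1 and -1.77 in QKO 2, against -1.79 and -1.12 log2 CPM in DKO. Hypothalamus and pituitary genes summed to 229 and 31.1 CPM in DKO and to 81.9 and 30.2 CPM in QKO. The part of these traits cannot be told apart from that of the genotype. Of the OPC genes 6 were lower in QKO than in DKO, with a list median of -0.50. That count was 5 without DKO 1, 4 without DKO 2, 3 without QKO 1 and 4 without QKO 2, and 1 when only these 4 libraries were fitted. The 6 include Olig2 (-0.92 ± 0.09, adjusted p = 0.000968), with DKO at 22.9 and 19.7 nRPKM, Olig1 (-0.76 ± 0.13), Bcan (-0.78 ± 0.12), Sox8 (-0.55 ± 0.08) and Pdgfra (-0.50 ± 0.08). Olig2 kept its call under every alternative, and Olig1 in 1 of the 4 fits with a library left out. Of the astrocyte genes 2 were lower, Slc1a3 (-0.49 ± 0.07) and Fgfr3 (-0.52 ± 0.10), a count of 0 without DKO 2 and of 5 with DESeq2. Of the radial glia genes 1 was lower, Slc1a3 again, and 0 were without DKO 2. Vim (-0.12 ± 0.07), Nes (0.26 ± 0.08), Egfr (-0.00 ± 0.09), Aldh1l1 (-0.11 ± 0.08) and Gfap (-0.73 ± 0.27, adjusted p = 0.373) did not pass between QKO and DKO. Whether OPC and radial glia genes differ in this was not tested.

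RefSeq promoter windows of assembly GRCm38.p6 were searched for the AP-1 motif TGANTCA and the ETS motif CCGGAAG on both strands in the 250 bases before each gene's start. Over the 13097 tested genes with a window, 5.62% held the AP-1 motif and 13.1% the ETS motif. Of the lower genes with a window 4.55% held the AP-1 motif and 9.09% the ETS motif, and of the higher genes 4.35% and 8.7%. Windows were matched for 75.9% of the 174 lower genes, 69.7% of the 66 higher genes and 70.1% of all genes tested. The sets thus differ in coverage, and these shares are a description whose differences were not tested. The windows of Olig2 and Gfap are shown because these genes carry the glial result, and those of Egfr and Mt2 because they hold a match. These motifs are different strings and neither contains the other. The genes were picked after their values were seen. Mt2, a metallothionein, was the gene of the hypoxia list that passed (25.03 and 20.43 nRPKM in KO, 13.0 and 12.3 in QKO, -0.86 ± 0.12), and the call was lost without KO 1. Capitals mark a motif match, and each sequence runs 5′ to 3′ on the strand of the gene.
Olig2, chr16:91225300-91225549, plus strand: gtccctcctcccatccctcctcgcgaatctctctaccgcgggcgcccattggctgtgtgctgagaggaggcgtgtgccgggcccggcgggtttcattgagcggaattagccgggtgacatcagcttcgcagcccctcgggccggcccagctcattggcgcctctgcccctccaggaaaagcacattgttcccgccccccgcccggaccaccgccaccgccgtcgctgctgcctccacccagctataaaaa
Gfap, chr11:102897201-102897450, minus strand: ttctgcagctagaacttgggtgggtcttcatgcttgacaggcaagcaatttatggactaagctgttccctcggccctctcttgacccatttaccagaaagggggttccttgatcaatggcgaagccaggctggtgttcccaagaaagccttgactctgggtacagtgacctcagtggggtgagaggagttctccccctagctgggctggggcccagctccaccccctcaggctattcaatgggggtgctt
Egfr, chr11:16751953-16752202, plus strand: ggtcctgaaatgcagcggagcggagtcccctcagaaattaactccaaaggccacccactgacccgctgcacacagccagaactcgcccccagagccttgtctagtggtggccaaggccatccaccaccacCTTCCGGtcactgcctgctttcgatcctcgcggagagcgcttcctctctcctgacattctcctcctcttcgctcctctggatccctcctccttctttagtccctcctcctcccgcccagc
Mt2, chr8:94172368-94172617, plus strand: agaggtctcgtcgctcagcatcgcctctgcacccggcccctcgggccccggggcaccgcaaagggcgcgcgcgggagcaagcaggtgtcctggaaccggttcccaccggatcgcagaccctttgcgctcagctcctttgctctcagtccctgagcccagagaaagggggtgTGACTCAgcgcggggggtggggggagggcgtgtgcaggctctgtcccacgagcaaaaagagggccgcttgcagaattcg
The Egfr window holds the ETS motif in its reverse complement, beginning 120 bases before the start. The Mt2 window holds an AP-1 match beginning 79 bases before the start. Neither motif is spelled in the windows of Olig2 and Gfap, which says nothing about other sites.

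The list named for G protein coupled receptor signalling was drawn up from earlier results of these data, so its count is a description. It also holds Prr5l and Inka2, which are not receptors. Of 11 measured members 6 fell, none rose and 5 did not pass, against 0.932% of all genes called lower. The list median was -0.79. The count was 3 without KO 1 and 3 without KO 2. Prokr1, a receptor for prokineticins, was at 2.55 and 2.68 nRPKM in KO and 0.824 and 0.960 in QKO, close to the 0.902 and 1.01 of the controls (-1.56 ± 0.14, adjusted p = 0.000345). The related Prokr2 was at 6.12 and 6.58 nRPKM in KO and 4.31 and 3.79 in QKO (-0.66 ± 0.09). Gna14, a G protein alpha subunit of the Gq class, was at 0.639 and 0.548 nRPKM in KO and 0.155 and 0.177 in QKO (-1.85 ± 0.26, adjusted p = 0.00465). The galanin receptor Galr2 was lower by -1.50 ± 0.22. Its call was lost without KO 1, without KO 2, without QKO 2 and with the HOX covariate. Prr5l, which binds the mTORC2 complex, fell by 1.13 ± 0.12 to 0.811 and 0.752 nRPKM, and Inka2, an inhibitor of the kinase PAK4, by 0.79 ± 0.11. Bdkrb2, the bradykinin receptor, did not pass (-0.95 ± 0.21, adjusted p = 0.0617). Between QKO and DKO, Gna14 (-2.24 ± 0.25) and Prokr2 (-0.62 ± 0.09) were lower, while Prokr1 (-0.27 ± 0.14) and Prr5l (-0.27 ± 0.12) did not pass. Both calls were lost when only these 4 libraries were fitted, and that of Prokr2 also without DKO 2 and without QKO 2.

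Lists of signalling genes and of their targets had 1 or 2 calls each, against 1.29% of all genes called. Of the genes called on them, Fgfr3, Egfr, Notch1, Hes5 and Cdon are also on the astrocyte or radial glia lists above. Of 15 measured ERK feedback genes 1 rose, Spred3, an inhibitor of Ras signalling (7.14 and 7.82 nRPKM in KO, 9.80 and 9.97 in QKO, 0.39 ± 0.07, adjusted p = 0.0232), and its call was lost in each fit with a library left out. Ccnd1, the cyclin D1 gene and a common ERK target, did not pass in edgeR (-0.38 ± 0.08, adjusted p = 0.0558). DESeq2 called 1 gene of this list higher, Spred3, and 2 lower, Ccnd1 (adjusted p = 0.00972) and the phosphatase gene Dusp7 (adjusted p = 0.00994). Of 19 FGF and EGF receptors and ligands 2 fell, Fgfr3 and Egfr. Of 14 Notch genes 2 fell, Notch1 and Hes5. That count was 1 without KO 1, without KO 2, under RLE or upper-quartile scaling, with limma and with the 4 libraries alone, and 0 without QKO 2. Of 11 Sonic hedgehog genes 1 fell, Cdon. Among 13 immediate early genes Egr1, a zinc finger factor induced by ERK, was at 1.62 and 1.57 nRPKM in KO and 3.05 and 2.91 in QKO, higher by 0.89 ± 0.12 (adjusted p = 0.00408). Egr1 was also higher in QKO than in DKO (0.67 ± 0.12, adjusted p = 0.0326), a call lost in each fit with a library left out. The nuclear receptor Nr4a2 fell by 0.32 ± 0.07 (adjusted p = 0.0445), a call found in none of the 4 fits with a library left out.

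A pair of genes of the neurogenic lineage rose. Of 12 intermediate progenitor genes 2 rose, none fell and 10 did not pass, with a median of 0.26, against 0.353% of all genes called higher. Eomes, the T-box factor of intermediate progenitors, was at 4.21 and 5.24 nRPKM in KO and 7.03 and 8.94 in QKO (0.75 ± 0.15, adjusted p = 0.0352). Neurod6, a factor of young cortical neurons, was at 80.2 and 83.1 nRPKM in KO and 101 and 120.5 in QKO (0.43 ± 0.09, adjusted p = 0.0363). The count was 0 without KO 1, 0 without KO 2, 0 without QKO 2 and 0 with limma, 1 with the 4 libraries alone, and 4 with DESeq2. The proneural gene Neurog2 missed the threshold (0.70 ± 0.15, adjusted p = 0.0501). The striatal neuropeptide gene Tac1, at 14.9 in both KO libraries and 20.03 and 20.42 nRPKM in QKO, rose by 0.43 ± 0.09 (adjusted p = 0.0426) and lost its call with any library left out. It was the member of 13 striatal genes that passed, against the same 0.353% of all genes called higher.

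The following lists of neurons and of dividing cells had no calls with edgeR. Of 20 neuronal maturation genes, 15 cortical layer genes, 15 GABAergic genes and 23 proliferation genes edgeR called 0, with medians of -0.00, -0.02, -0.02 and -0.08. At an unadjusted p under 0.05 these lists held 2, 2, 3 and 2 genes, against 2148 of all 18671, and DESeq2 called 1 neuronal maturation gene, higher in QKO, and 0 of the others. Of the endothelial, microglial, meningeal and ependymal genes edgeR and DESeq2 called 0, and edgeR gave 0, 4, 3 and 0 an unadjusted p under 0.05. Of the choroid plexus genes Calml4 rose (1.1985 ± 0.20, adjusted p = 0.0136), and of the pericyte genes Cspg4 fell. The marker sums for endothelial cells were 442 to 445 CPM in KO and 404 to 425 CPM in QKO, and those for microglia 135 to 144 CPM in KO and 147 to 159 CPM in QKO.

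**Figure D4:**
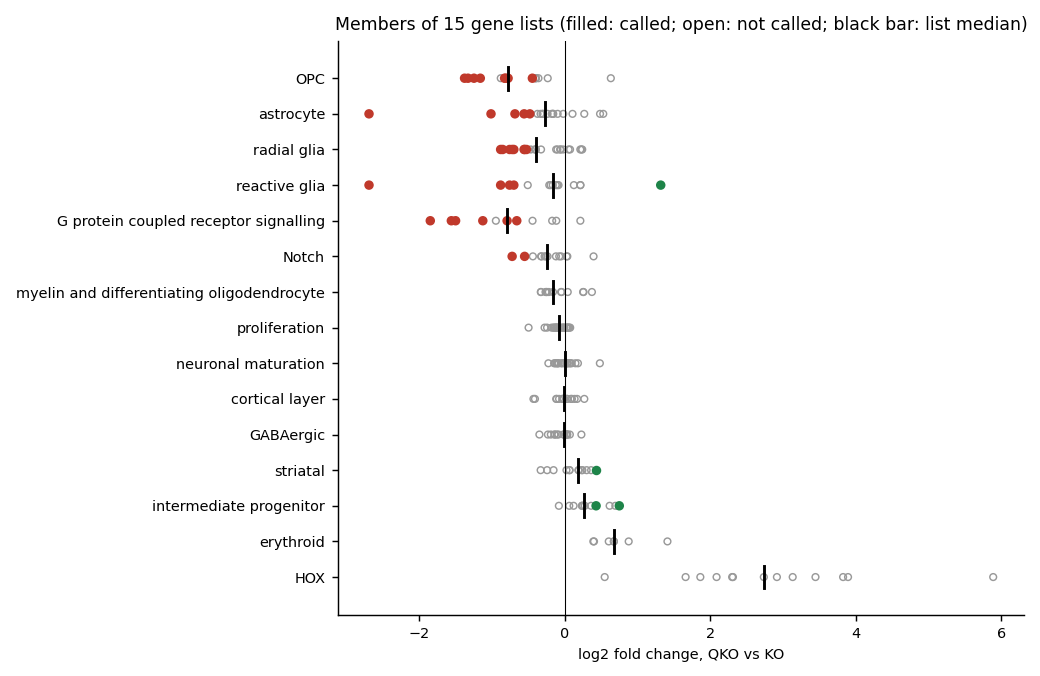
Each row is a gene list and each point a measured member, with its log2 fold change in QKO against KO on the x axis. Filled points are called, red lower and green higher, open points are not called, and black bars are list medians. The OPC and G protein lists have medians near -0.8, the neuronal lists centre on 0, and the open HOX points spread from 0.55 to 5.89.

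Among reactive glia genes the median log2 fold change was -0.16. Of 15 measured members 4 fell (Gfap, Vim, Nes and Tnc, all on the other glial lists) and 1 rose. Over all genes tested 0.932% were called lower and 0.353% higher. The member that rose was Serpina3n, a secreted protease inhibitor of reactive astrocytes. It stood at 1.16 and 1.21 nRPKM in KO and 3.22 and 2.74 in QKO (1.32 ± 0.15, adjusted p = 0.00147). Control, DKO and TKO lay between 0.855 and 1.08 nRPKM, and QKO was higher than control and than DKO by 1.63 ± 0.16 each. Its neighbours on chromosome 12, Serpina3h and Serpina3m, were also called higher. Serpina3m was listed at 0 in both KO libraries and at 0.216 and 0.213 nRPKM in QKO, and its call was lost with DESeq2, with the HOX covariate and in each fit with a library left out. Serpina3h lost its call with DESeq2 and without KO 1. The copies of this family are near-identical in sequence, reads may be split among them, and the assignment to a copy is uncertain. Spp1 and Cd44 did not pass (0.13 ± 0.16 and -0.19 ± 0.12). On the collagen and matrix list 1 of 16 measured genes passed, the fibrillar collagen gene Col5a3. It was at 1.73 and 1.65 nRPKM in KO and 0.765 and 0.480 in QKO (-1.46 ± 0.22), and lost its call without KO 1.

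Outside the lists 198 genes were called, 56 higher and 142 lower. Among the lower ones, several that are known from astrocytes and radial glia are given here after their values were seen. Dio2, the deiodinase by which glia activate thyroid hormone, was at 3.34 and 3.35 nRPKM in KO and 1.06 and 0.845 in QKO (-1.82 ± 0.17, adjusted p = 0.000376). Hepacam, an adhesion protein of astrocytes, was at 18.9 and 16.9 nRPKM in KO and 11.1 and 9.87 in QKO (-0.78 ± 0.09). Ednrb, the endothelin B receptor, was at 40.8 and 39.7 nRPKM in KO and 24.04 and 22.90 in QKO (-0.79 ± 0.07). Ednrb was at 37.0 and 36.2 nRPKM in control, and QKO was lower than control as well (-0.64 ± 0.07, adjusted p = 0.00252). The potassium channel gene Kcnj10 fell by 0.51 ± 0.07, but was called in 1 of the 4 fits with a library left out. The transcription factors Sall3 (-0.92 ± 0.08) and Sox6 (-0.44 ± 0.06) also fell. Dusp16, a phosphatase acting on JNK, was at 3.83 and 3.90 nRPKM in KO and 2.28 and 2.25 in QKO (-0.78 ± 0.09, adjusted p = 0.00108). Dio2, Hepacam, Ednrb, Sall3, Sox6 and Dusp16 were called in all 4 fits with a library left out.

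Several genes with large folds differed among the genotypes in other orders than the glial genes. Tdg-ps2, a pseudogene of Tdg, was at 1.91 and 1.96 nRPKM in KO and between 0.0307 and 0.0817 in the other 8 libraries, and QKO was 24.5-fold lower than KO (-4.61 ± 0.22). AI506816 was at 0.329 and 0.320 nRPKM in KO and 0.367 and 0.436 in TKO, but between 4.34 and 5.01 in control, DKO and QKO (3.83 ± 0.13). The gene 2610507I01Rik was at 5.86 and 6.72 nRPKM in KO and 0.617 and 0.663 in QKO, with DKO between them at 3.40 and 3.44 (-3.30 ± 0.11). Ubb-ps, a pseudogene of the ubiquitin gene Ubb, was at 2.17 and 2.01 nRPKM in KO and 10.9 and 25.8 in QKO (3.12 ± 0.34), while Ubb itself was lower (-0.99 ± 0.16). Reads of such near-identical copies may be assigned to either, so both are uncertain. Gm11942 was higher in QKO (4.80 ± 0.87), a call found in 1 of the 4 fits with a library left out, and 1 TKO library held 0.962 and the other 15.4 nRPKM of it. Rpl29 (-2.67 ± 0.55) and Gm10499 (-2.74 ± 0.57) varied as widely within a genotype and lost their calls in all 4 and in 3 of the 4 fits with a library left out.

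For some genes the QKO libraries stood apart from the 8 others. Pla2g4e, a phospholipase A2, was at 2.85 and 3.19 nRPKM in KO and 7.11 and 10.6 in QKO (1.55 ± 0.17, adjusted p = 0.000783), with the other 6 libraries between 2.43 and 3.27. Metap1d, a mitochondrial methionine aminopeptidase, was at 11.1 and 12.4 nRPKM in KO and 5.92 and 4.31 in QKO (-1.21 ± 0.13). Lyrm7, an assembly factor of respiratory complex III, was at 2.88 and 3.04 nRPKM in KO and 1.33 and 1.16 in QKO (-1.26 ± 0.13). Each of these was also called in QKO against control, Metap1d only with both control libraries, and in QKO against DKO. Akr1c19 was at 0.864 and 0.877 nRPKM in KO and 2.23 and 2.35 in QKO (1.39 ± 0.22), but at 0.0631 and 0.0464 in DKO, and lost its call without KO 1 and without KO 2. In QKO against KO, Pla2g4e, Metap1d and Lyrm7 were called in all 4 fits with a library left out. Metap1d and Lyrm7 were chosen after their values were seen.

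**Figure D5:**
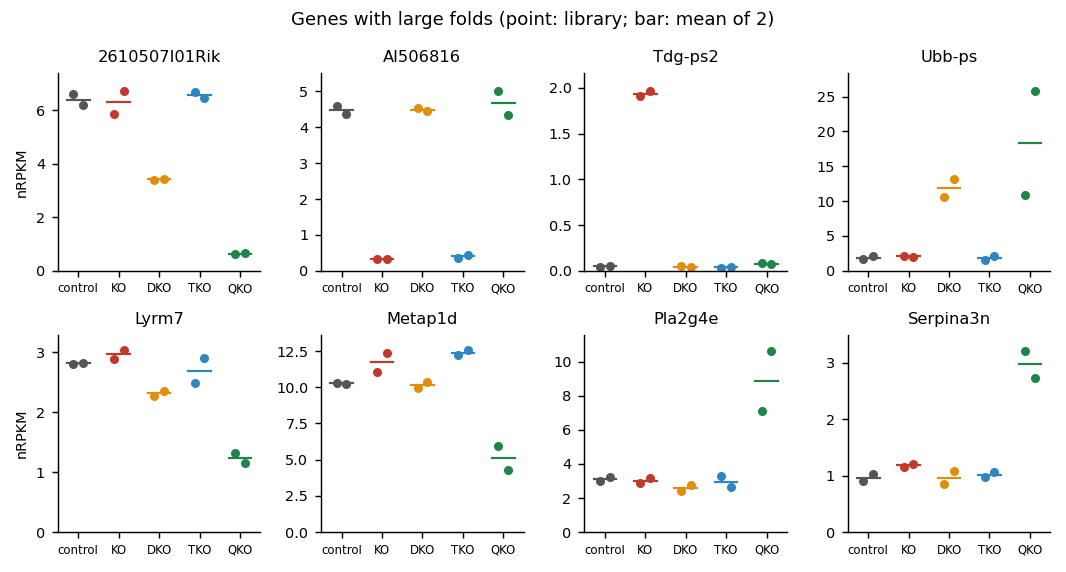
Each panel shows a gene with its nRPKM on the y axis (linear, from 0) and the 5 genotypes on the x axis. Points are libraries and bars the mean of 2. Tdg-ps2 is high in KO only, AI506816 is low in KO and TKO, and Lyrm7, Metap1d, Pla2g4e and Serpina3n set QKO apart from the other genotypes.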

How the data were processed

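Polyadenylated RNA from brains at embryonic day 18.5 was sequenced in 10 libraries, 2 for each of 5 genotypes. The submitters' processing notes name GSNAP, without a version, and the build NCBIM37. Per the file headers, the authors deposited for each gene model a count of uniquely aligned reads and a size-factor-adjusted RPKM (nRPKM). Annotation release and use of strand were not given in the sources used here, so overlapping or antisense genes may share reads. The 28059 Entrez identifiers were named from RefSeq for GRCm38.p6 (24998, 89.1%), the source of the promoter sequences and of the order of neighbouring genes. That build differs from the authors'.

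Counts were tested with edgeR 4.0.16 (R 4.3.3), using the quasi-likelihood test on 5 group means over all 10 libraries, which share an estimate of the spread (5 residual degrees of freedom, common biological coefficient of variation 0.0821). Scaling was by TMM, filterByExpr kept 18671 genes and set 9388 aside, and p-values were adjusted over the kept genes (Benjamini-Hochberg). Calls are at an adjusted p under 0.05. Standard errors were derived from the F statistic. The script was tested on simulated data. Alternatives were DESeq2 1.42.0, limma 3.58.1 on log2(nRPKM + 0.1), other scalings, no filter, a HOX covariate, only the libraries compared, and each library left out. Named genes are the deleted genes and Etv4, the 15 largest folds each way among called genes with a mean of at least 1 CPM and a symbol, and on each of 37 lists the called members (up to 8) and 3 further members with the smallest p. Members, lists and this rule were chosen with earlier results of these data known, and 4 list symbols matched no identifier. Library totals ranged from 31996944 to 54594523 counts. Libraries of 1 group differed by more than sampling noise (chi-square per degree of freedom from 7.51 to 19.5). Floors of 3 counts cover counting error only.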

Additional observations from a re-analysis of the deposited data

How the results depend on the processing

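With 2 libraries a group, calls depended on the libraries. No gene called in QKO against KO changed sign under any alternative, which is no test of direction because the same libraries were refitted. The 240 calls in QKO against KO became 487 with no filter on low counts and 136 with limma, and ranged from 75 to 259 with a library left out. The 137 calls in KO against control became 241 with DESeq2, 300 with no filter, 65 with limma and 691 with only these 4 libraries, and ranged from 23 to 44 with a library left out. The 44 in QKO against control became 91, 122, 23 and 22 under the same alternatives, with a range from 16 to 69, and the 130 in QKO against DKO became 228 with DESeq2, 318 with no filter and 28 with only these 4 libraries, with a range from 72 to 160. Under DESeq2, RLE and upper-quartile scaling, QKO against KO gave 349, 221 and 205 calls, of which 226, 220 and 198 were among the 240. In fits with a library left out, the lone library is assumed to vary like the other groups. The cause of these differences was not tested, apart from the larger number of genes tested without a filter. No paired analysis was possible because the replicate numbers were given in accession order and the labels carry none. Lane, litter and strain could not be examined.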

Other observations

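Genes called in QKO against KO lay on every tested chromosome except Y, at 1.18% of the tested genes of chromosome 1 (Cop1), 1.22% of chromosome 4 (Jun), 1.74% of chromosome 12 (Etv1) and 1.16% of chromosome 16 (Etv5), against 1.29% over all genes. Near Jun, the called genes Tusc1 (0.65), Eqtn (-3.59) and Cyp2j9 (-0.63) lay with it within a stretch of 17 tested genes, in the gene order of GRCm38.p6. On chromosome 11, Mapk7, B9d1, Specc1 and Ubb were called within 18 tested genes, and on chromosome 3 Nes and Bcan were called with Mab21l2 within 20. Jun, Specc1, Nes and Bcan were called in all 4 fits with a library left out, Ubb in 2, Tusc1, Eqtn and Mab21l2 in 1 each, and Cyp2j9, Mapk7 and B9d1 in 0. Eqtn ranged from -7.33 to -1.87 over the alternatives and lost its call with DESeq2, with the HOX covariate and with the 4 libraries alone.

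Genes of secreted and membrane proteins outside the lists, given after their values were seen, included Htra1, a secreted protease (11.95 and 12.22 nRPKM in KO, 6.61 and 5.89 in QKO, -0.96 ± 0.10), the lipid phosphatase gene Plpp3 (-0.49 ± 0.06) and the frizzled receptor gene Fzd9 (-0.82 ± 0.11). Fgfbp3, a carrier of FGFs, went the other way, from 8.18 and 8.75 nRPKM in KO to 14.09 and 17.97 in QKO (0.91 ± 0.11), as did Scg5, a chaperone of prohormone convertase (62.6 and 60.5 nRPKM in KO, 98.4 and 134.1 in QKO, 0.91 ± 0.11). The urea transporter gene Slc14a2 rose from 0.704 and 0.698 to 1.45 and 1.59 nRPKM. Gh, the growth hormone gene of the pituitary, was at 55.6 nRPKM in QKO 1 and 0.0273 in QKO 2, at 1.41 and 0.0572 in KO, and at 187 and 0 in DKO, and did not pass.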
